A study of Mus musculus with 24 samples.

Results

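The 9 genes described here are P2ry12, P2ry13, Tmem119, Siglech, Cx3cr1, Selplg, Fcrls, Gpr34 and Sall1, which are used to recognise homeostatic microglia. They were chosen by name, as 9 of the 32288 genes in the deposited count matrices, and each name matched 1 gene. Counts were read in single-nucleus RNA-seq libraries made separately from the cortex and from the deep brain of each animal, 24 in all. Of the 12 mice, 6 were mutants with the genotype Pdgfb ret/ret, and the other 6, of the genotype Pdgfb ret/wt, served as controls. All mice were of the strain B6.Pdgfbtm3Cbet, no treatment was named, and the controls also carried 1 ret allele, so no library came from mice without it. The ret allele lacks the retention motif of PDGF-B in every cell, which leaves the mutants with too few pericytes. In both genotypes mice 1 to 3 had an age of 5 months and 0 to 18 days, mice 4 to 6 one of 4 months and 7 to 24 days. The 6 mutants and 5 of 6 controls were females, and control 6 was a male. The deep brain, which is prone to vessel calcification in this model, held pallidum, interbrain, midbrain and hindbrain, and the cortical tissue held cerebral cortex with hippocampus.

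Microglia are the resident macrophages of the brain parenchyma, and in the undisturbed brain they survey their surroundings with motile processes. This state depends on the lineage factor PU.1 and on TGFβ signaling from the tissue, and is marked by genes that sense nucleotides, lipids and neuronal surface molecules. Activated microglia around plaques, injured tissue or calcified vessels are known to lower many of these genes. P2ry12 and P2ry13 encode purinergic receptors for ADP, and P2ry12 guides process extension toward released nucleotides. Cx3cr1 encodes the receptor of fractalkine, the neuronal ligand Cx3cl1, and Gpr34 encodes a receptor for lysophosphatidylserine. Siglech encodes a sialic acid-binding lectin that couples to the adaptor DAP12, Selplg encodes the selectin ligand PSGL-1, and Fcrls encodes a scavenger-type Fc receptor-like protein. Tmem119 encodes a membrane protein, and Sall1 is the zinc-finger factor that maintains microglial identity and is the only transcriptional regulator of the set.

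In GRCm38 (GENCODE M21) P2ry12 (ENSMUSG00000036353, chr3:59216272-59262871) and P2ry13 (ENSMUSG00000036362, chr3:59207892-59210882) lie side by side on the minus strand, inside the coding gene Med12l of the opposite strand. Fcrls (ENSMUSG00000015852, chr3:87250758-87263738) lies farther along the same chromosome. Tmem119 (ENSMUSG00000054675, chr5:113793729-113800516) and Selplg (ENSMUSG00000048163, chr5:113818536-113832644) are close neighbours on the minus strand. Gpr34 (ENSMUSG00000040229, chrX:13632089-13640858) lies on the plus strand inside Cask, which is read from the minus strand. Cx3cr1 (ENSMUSG00000052336, chr9:119901616-120069879) has an annotated span that overlaps Wdr48, Gorasp1, Ttc21a, Csrnp1 and Xirp1. Siglech (ENSMUSG00000051504, chr7:55768178-55778925) and Sall1 (ENSMUSG00000031665, chr8:89027235-89044162) overlap no other coding gene. How the counting treated reads on opposite strands is not given in the sources used here.

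Promoter windows of 300 bases, from 250 bases before to 50 bases after the start site, were taken from RefSeq (GRCm38.p6), in which 6 of the 9 genes had an entry, with 3 windows for Sall1 and 1 for each of the others. They were searched on both strands for GAGGAA, core letters of the site of PU.1, and no other motif was searched. On the other strand these letters read TTCCTC. The letters were found in P2ry13, Fcrls and Siglech and not in P2ry12, Cx3cr1 or Sall1, that is in 3 of 8 windows, beside 28.3% of all 32851 promoters (9289). A match is a description and not a site. The windows of P2ry12 and Fcrls are printed because these were the genes that fell between regions in both genotypes, with the match in capitals. Of the 4 genes with a window that were not called between regions, P2ry13 and Siglech are printed because they hold the letters, and Cx3cr1 and Sall1, without them, are not printed. The windows were chr3:59262936-59263235 (minus strand) for P2ry12, chr3:87263475-87263774 (minus strand) for Fcrls, chr3:59210833-59211132 (minus strand) for P2ry13 and chr7:55767934-55768233 (plus strand) for Siglech.
P2ry12: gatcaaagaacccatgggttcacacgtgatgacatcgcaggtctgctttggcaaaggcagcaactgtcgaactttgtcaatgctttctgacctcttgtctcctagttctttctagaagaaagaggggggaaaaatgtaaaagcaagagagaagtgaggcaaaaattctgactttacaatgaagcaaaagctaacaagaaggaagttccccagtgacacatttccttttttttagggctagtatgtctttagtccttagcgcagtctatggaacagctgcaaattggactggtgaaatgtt
Fcrls: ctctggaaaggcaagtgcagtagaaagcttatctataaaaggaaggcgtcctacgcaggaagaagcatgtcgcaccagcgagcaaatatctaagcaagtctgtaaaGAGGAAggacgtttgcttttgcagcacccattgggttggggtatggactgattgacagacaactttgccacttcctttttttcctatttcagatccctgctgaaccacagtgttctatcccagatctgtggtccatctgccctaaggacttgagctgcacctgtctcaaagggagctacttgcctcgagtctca
P2ry13: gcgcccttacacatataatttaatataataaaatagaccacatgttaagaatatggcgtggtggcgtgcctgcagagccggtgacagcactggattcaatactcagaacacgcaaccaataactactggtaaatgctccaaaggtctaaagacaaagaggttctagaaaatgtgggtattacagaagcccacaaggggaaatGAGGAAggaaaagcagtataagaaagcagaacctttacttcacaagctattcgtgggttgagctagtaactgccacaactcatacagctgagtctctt
Siglech: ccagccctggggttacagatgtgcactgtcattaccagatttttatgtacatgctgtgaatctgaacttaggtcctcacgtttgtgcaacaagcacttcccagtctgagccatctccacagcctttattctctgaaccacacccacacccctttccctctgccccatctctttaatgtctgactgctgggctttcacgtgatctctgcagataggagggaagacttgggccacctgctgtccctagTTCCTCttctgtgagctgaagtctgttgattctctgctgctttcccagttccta

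Of 237224 barcodes, 204925 nuclei were kept (over 500 and under 7000 genes, under 20% mitochondrial UMIs), and libraries held 23625232 to 96459036 UMIs. Of 203940 barcode sequences, 30178 occurred in more than 1 library. In 7 of the 12 cortical libraries the median nucleus had fewer than 1500 UMIs, and 39878 cortical nuclei with a median of 841 UMIs stayed unnamed. Clusters were named from marker lists that did not hold the 9 genes, and the 9 genes were also left out of clustering. Microglial nuclei with a UMI of Mrc1, Mbp, Aqp4 or Rbfox3 (2043 in the deep brain and 572 in the cortex) were left out, and no doublet caller was run. This left 2339 microglial nuclei in the deep brain, 133 to 280 per library, and 1072 in the cortex. In the cortex mutants 5 and 6 and control 5 gave 310, 208 and 265 nuclei, while the other 9 libraries gave only 18 to 61. Those 3 libraries were also shallower per microglial nucleus, and the median over libraries ranged from 1869 to 4310 UMIs in the cortex against 1909 to 2618 in the deep brain. All 12 microglial markers were detected in every library, but they are the markers by which the nuclei were named. The summed markers reached 16634 ± 2515 CPM (SD, n = 6) in mutant and 16614 ± 1968 CPM in control deep brain, and 20255 ± 3586 and 21496 ± 2105 CPM in mutant and control cortex. In bulk sums of this kind fewer expressing nuclei and less RNA per nucleus cannot be told apart.

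All 9 genes were highest in microglial nuclei in both regions. Levels are counts per 1000000 UMIs of the class (CPM), with nuclei of a region pooled, and clusters were made from these same nuclei, so they are a description with no test. P2ry12 stood at 1530.5 CPM in deep brain microglia and at 2020.01 CPM in cortical microglia, and in neurons it stood at 8.60 and 10.2 CPM. To rank the genes, the mean microglial CPM of both regions was divided by the highest CPM of any other class in either region, with 1 CPM added to each side. By this ratio Tmem119 was the most restricted (11.7), at the ninth rank among 4490 genes of at least 50 CPM in microglia. Siglech (8.68), Gpr34 (8.50), Sall1 (7.51) and P2ry12 (6.67) followed. P2ry13 (5.27) and Cx3cr1 (4.74) were intermediate, and Fcrls (2.37) and Selplg (1.99) were the least restricted.

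The class that came closest differed from gene to gene. Macrophages, a related lineage at the borders of the brain, came closest for P2ry12, P2ry13, Siglech, Cx3cr1, Fcrls and Gpr34. Tmem119 came closest in cortical fibroblasts (37.0 CPM) and Sall1 in 31 cortical mural nuclei, where 2 UMIs gave 35.7 CPM. Fcrls in deep brain macrophages stood at 289 CPM, 45.6% (Poisson 95% interval 38.5 to 53.7%) of its microglial level. The other 7 genes apart from Sall1 stood at 7.42 to 20.2% there. Sall1 gave only 2 UMIs in 263 macrophage nuclei, 1.48% of its microglial level. Selplg came closest in T cells, which use PSGL-1 for homing, at 411 CPM in 126 nuclei or 52.9% (42.3 to 65.3%) of the microglial level. The intervals cover counting error only.

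Sall1 had the smallest share of its own UMIs in microglial clusters. In deep brain oligodendrocytes it stood at 26.0 CPM, or 9.75% of its microglial level, while the other 8 genes stood at 0.144 to 0.680% there. In deep brain astrocytes it reached 5.22% against 0.134 to 0.710% for the others, and in cortical astrocytes and oligodendrocytes 9.07% and 7.18%. A Sall1 UMI was found in 6.86% of deep brain oligodendrocyte nuclei (median 2671 UMIs), in 1.31% of neurons (median 9611 UMIs) and in 0.380% of macrophages (median 1787 UMIs). For comparison, a Fcrls UMI was found in 0.473% of the same oligodendrocytes and in 66.1% of microglia (median 2236 UMIs). Microglial clusters held 37.3% of all deep brain Sall1 UMIs, against 65.8% for P2ry12 and 77.5 to 93.0% for the other 7 genes. In the cortex the share in microglial clusters was 40.3% for Sall1 and 56.1 to 77.8% for the others.

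**Figure D1:**
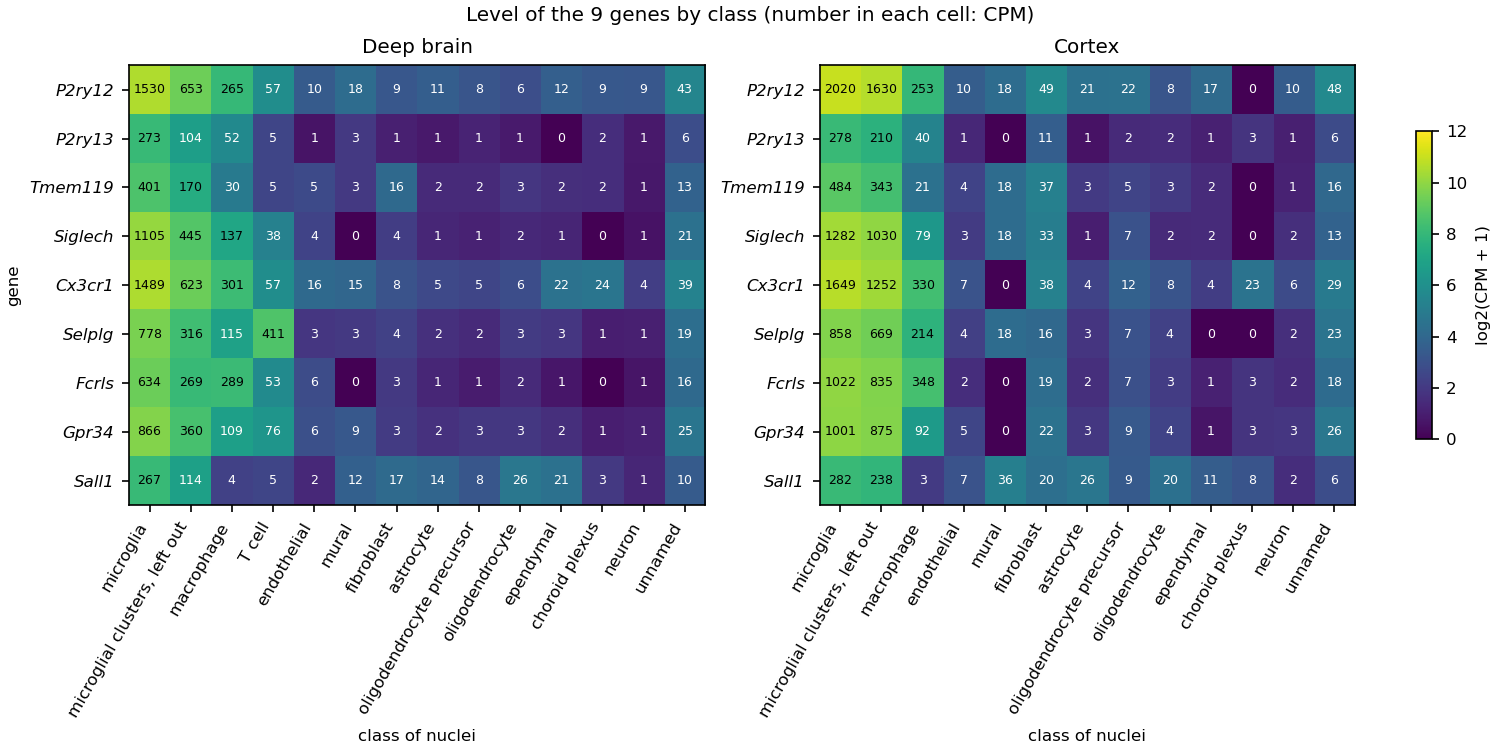
Level of each gene (rows) in each class of nuclei (columns) of the deep brain and the cortex, with CPM written in the cells and log2(CPM + 1) as color, to be compared along a row. The microglial column is the highest in every row. Apart from the column of left-out nuclei of the microglial clusters, Fcrls and Cx3cr1 are next highest in macrophages. On the same terms Selplg is next highest in deep brain T cells at 411 CPM. Sall1 has 26.0 CPM in deep brain oligodendrocytes and 3.96 CPM in macrophages.

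Over the 23 combinations of class and region, the genes most correlated with the mean log2(CPM + 1) of the set, out of 4481 candidates, included Gm2629 (r = 0.982), Gm34589, Csf3r, Aif1, Trem2, Csf1r, I830077J02Rik, Gna15 and Gm15503 (r = 0.962). Trem2 and Csf1r were also markers by which microglia were named. The points share libraries and most classes lack all of these genes, so the correlations are a description. Gm2629 stood at 886 CPM in deep brain and 907 CPM in cortical microglia and at 45.6 CPM in its next class, deep brain macrophages.

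The first comparison asked whether the set differed between genotypes in microglia of the calcification-prone deep brain. For each library the counts of its microglial nuclei were summed and tested with edgeR's quasi-likelihood test, with Benjamini-Hochberg adjustment over all genes tested and a threshold of 0.05. None of the 9 genes passed, none reached an unadjusted p under 0.05 (0 of 9, beside 5.86% of all genes) and DESeq2 called 0, beside 0.115% of all 7848 genes (9 genes) called, 0.102% higher and 0.0127% lower in mutants. The log2 fold changes of mutants over controls lay between -0.12 and 0.09 and 7 of the 9 were negative. Their median was -0.08, beside 0.00136 over all genes, and no 95% interval reached beyond -0.42 or 0.36.

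Among the receptors P2ry12 ranged in mutants from 1280.2 through a median of 1488 to 1647 CPM, and in controls from 1282 through 1629.8 to 1985 CPM. The mutant libraries lay within a narrower span than the controls and only 1 of them lay below all controls. Its log2 fold change was -0.09 ± 0.12 (SE; edgeR adjusted p = 0.975). Cx3cr1 ranged from 1393 through 1479.6 to 1570.1 CPM in mutants and from 1183 through 1515 to 1773 CPM in controls, so that every mutant lay inside the range of the controls. Gpr34 ranged from 804 through 851 to 893 CPM and from 647 through 950.1 to 1092 CPM, with the same nesting. P2ry13, at 267 ± 54.5 CPM (SD, n = 6) in mutants and 291 ± 56.2 CPM in controls, had overlapping groups as well.

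Of the surface molecules, Siglech stood at 930.1, 1010.3 and 1303 CPM (lowest, median, highest) in mutants and at 1036, 1130.4 and 1376 CPM in controls. Mutants were on the low side for this gene, with 3 libraries below all controls, but the others reached into the control range and the log2 fold change was -0.08 ± 0.11. Fcrls stood at 504, 635 and 704 CPM in mutants and at 429, 675 and 817 CPM in controls, and Selplg at 605, 763 and 893 CPM and at 557, 823 and 1094 CPM. Both sets of mutants lay inside the control range. Tmem119, which stood at 372, 415 and 457 CPM in mutants and at 263, 411 and 500.1 CPM in controls, had the highest fold change of the set at 0.09 ± 0.13.
The regulator Sall1 had the same mean of 266 CPM in both genotypes (SD 36.6 and 34.1, n = 6 each), with a 95% interval of the log2 fold change from -0.23 to 0.25. For the 13 mitochondrial genes the sum was 2039 ± 352 CPM in mutant and 1461 ± 393 CPM in control deep brain, and its part in these results was not tested.

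**Figure D2:**
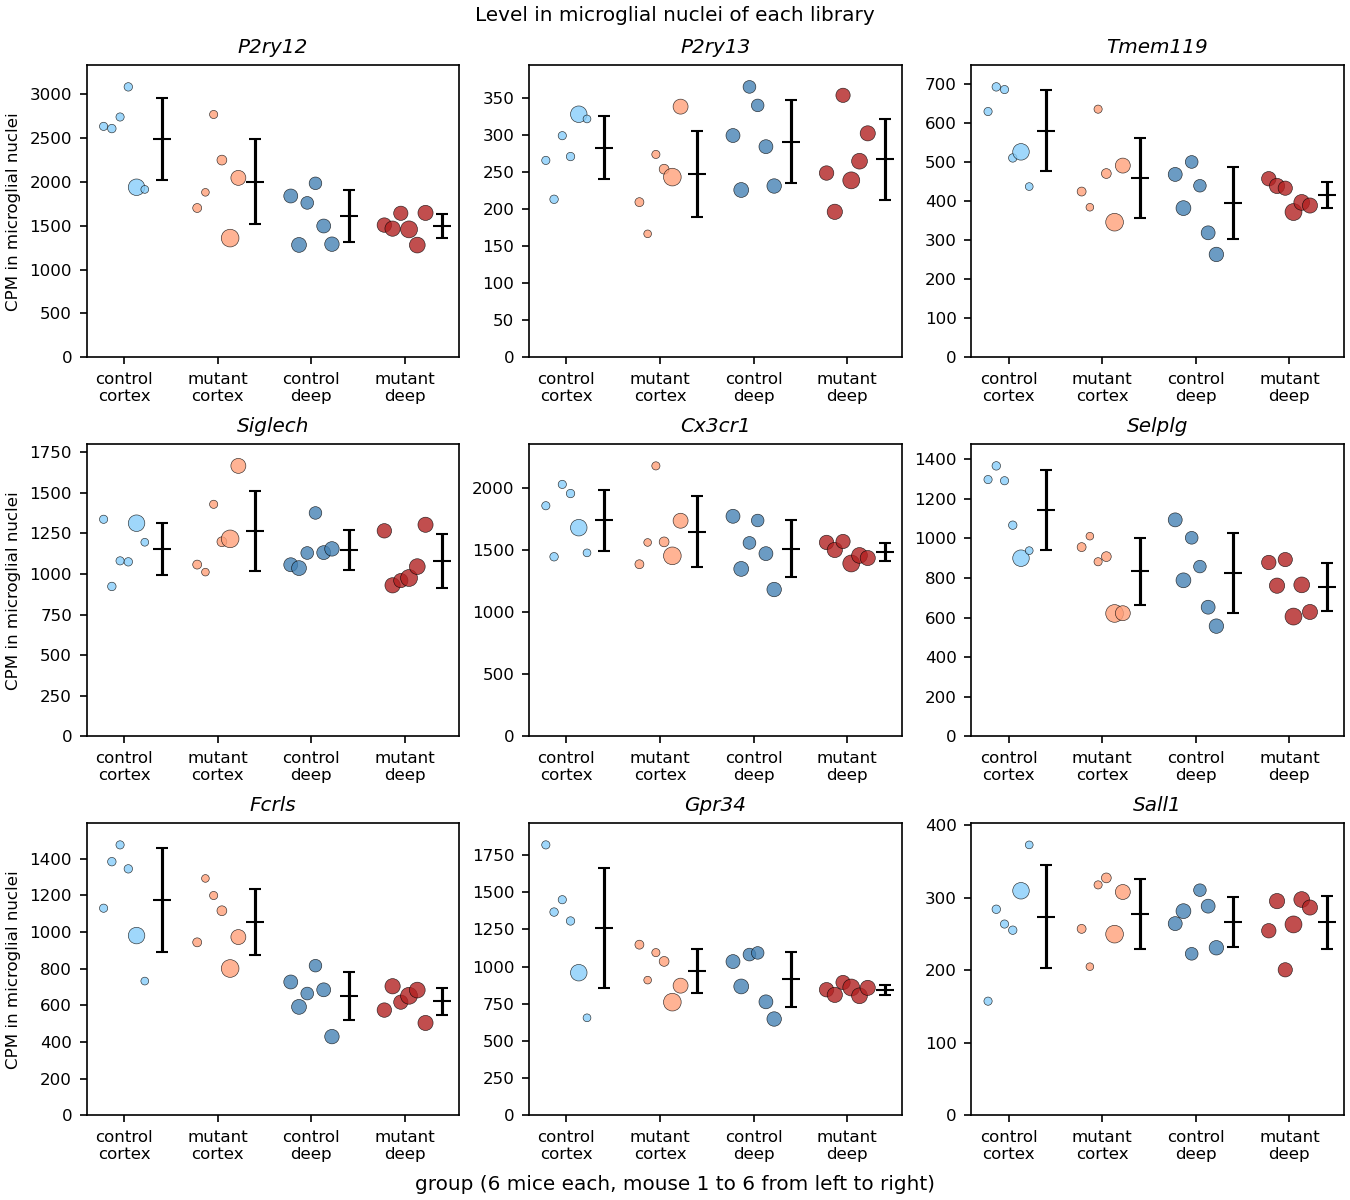
CPM of each gene in the microglial nuclei of each library, with mice 1 to 6 from left to right in each group, point area by the number of microglial nuclei, and bars for the mean and SD over 6 mice. Deep brain groups overlap for all 9 genes, and the cortical points of Fcrls (733 to 1476 CPM in controls) and P2ry12 (1915 to 3085 CPM in controls) sit mostly above the deep brain points.

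The second comparison was the same in the cortex, which stays free of calcification. Again 0 of the 9 genes passed (edgeR; 0 by DESeq2), beside 0.145% of the 2765 genes tested (4 genes), and 3 had an unadjusted p under 0.05, beside 6.22% of all genes at that limit (172 genes), all 3 lower in mutants. The median log2 fold change of the set was -0.17, beside -0.00804 over all genes. Selplg ranged from 621 through 895 to 1011 CPM in mutants and from 900.2 through 1179 to 1367 CPM in controls. Mutants were low, with 3 libraries below every control, and the groups overlapped in the rest. The log2 fold change was -0.47 ± 0.15 (edgeR adjusted p = 0.359). Mutants 5 and 6, the libraries with most nuclei, had the low values of 621 and 622 CPM, and control 5, the well-captured control, had the lowest control value of 900.2 CPM.

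The other 2 genes were Tmem119, at a log2 fold change of -0.35 ± 0.16, and Gpr34, at -0.38 ± 0.17, with an edgeR adjusted p of 0.716 each. Tmem119 ranged from 346 through 447 to 635 CPM in mutants and from 437 through 578 to 692 CPM in controls, with 3 mutants below all controls. Gpr34 ranged from 761 through 972 to 1147 CPM and from 656 through 1337 to 1819 CPM, and all mutants lay inside the control range. P2ry12, at 2002 ± 484 CPM in mutants and 2488 ± 466 CPM in controls, had a log2 fold change of -0.31 ± 0.16 with a 95% interval from -0.64 to 0.01. Siglech and Sall1 had fold changes above 0, at 0.14 ± 0.13 and 0.03 ± 0.17, and the other 3 genes lay between -0.17 and -0.08. With 18 to 61 nuclei in most of these libraries the intervals were wider than in the deep brain and reached from -0.79 to 0.41, so this comparison was less precise. The mitochondrial genes summed to 2920 ± 917 CPM in mutant and 1955 ± 1067 CPM in control cortex, and their part in these values was not tested.
Mutants and controls 1 to 4 had the same age number for number, and mice 5 and 6 had theirs crossed. With the number as a block Selplg was called (edgeR adjusted p = 0.0151, and 0.0212 with pairs matched by age), among 33 and 31 genes called in all.
The genotypes also filled the cortical clusters unequally. A cluster of 200 nuclei, left unnamed because Sox2ot and the neuronal genes Adarb2, Erbb4 and Meis2 led it beside interferon genes such as Rsad2 and Ifi207, held 5.77 to 96.7% of the microglial nuclei of a mutant library (median 60.2%) and 0 to 28.1% of those of a control library (median 4.82%). With nuclei pooled over mice, the intervals of the 3 genes overlapped between this cluster and the other cortical nuclei. Selplg stood at 872 CPM (Poisson 95% interval 803 to 945) and 853 CPM (813 to 894). Tmem119 stood at 463 and 491 CPM, and Gpr34 at 994 and 1004 CPM. Of the 872 other nuclei, 273, 196 and 258 came from mutants 5 and 6 and control 5. Mutants 1 and 4 gave 40 and 59 nuclei of the cluster. These pooled levels therefore cannot separate the cluster from the library. Without the cluster, an alternative chosen after seeing the data that left 2 to 273 nuclei in a mutant library (median 9.5), none of the 9 genes was called, and Selplg stood at -0.61 (edgeR adjusted p = 0.605).

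In control mice 5 of the 9 genes fell from the cortex to the deep brain. Both regions came from the same 6 mice, so the mouse was kept as a block. The genes were Fcrls, P2ry12, Tmem119, Selplg and Gpr34, beside 0.782% of the 6395 genes tested called lower (50 genes), 0.453% called higher and 1.24% called in either direction, and none of the 9 rose. The median log2 fold change of the set was -0.46, beside 0.00287 over all genes. DESeq2 called 4 of the 5.

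Fcrls changed most. In control cortex it ranged from 733 through 1238 to 1476 CPM and in control deep brain from 429 through 675 to 817 CPM. The deep brain value was the lower one in 6 of 6 mice, with a median ratio within a mouse of 0.597, although the lowest cortical library (control 6, 20 nuclei) lay within the deep brain range. The log2 fold change was -0.86 ± 0.11 (edgeR adjusted p = 4.15e-05). P2ry12 ranged from 1915 through 2622 to 3085 CPM in the cortex and from 1282 through 1629.8 to 1985 CPM in the deep brain, was lower in the deep brain in 6 of 6 mice, and fell by 0.65 ± 0.09 on the log2 scale (edgeR adjusted p = 0.000214). Only the highest deep brain library reached the cortical range.

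Tmem119 fell by 0.60 ± 0.11 (edgeR adjusted p = 0.00580), Selplg by 0.51 ± 0.10 (0.00720) and Gpr34 by 0.46 ± 0.10 (0.0191), each with the lower value in the deep brain in 6 of 6 mice. Tmem119 stood at 580.1 ± 104 CPM in the cortex and 395 ± 91.3 CPM in the deep brain, Selplg at 1144 ± 201 and 825 ± 204 CPM, and Gpr34 at 1259.5 ± 404 and 914 ± 184 CPM. Their groups overlapped when mice were not matched. Cx3cr1 was also lower in the deep brain in 6 of 6 mice, but its log2 fold change of -0.23 ± 0.09 did not pass (edgeR adjusted p = 0.365). P2ry13 (-0.00 ± 0.13), Siglech (-0.04 ± 0.10) and Sall1 (-0.05 ± 0.15) were not called, with 95% intervals that together reached from -0.36 to 0.27. P2ry12 thus fell while P2ry13, its neighbour with the same ligand, was not called, and the difference between both genes was not tested. The control cortical libraries are those of the genotype comparison in the cortex as well.

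In mutants 2 of the 9 genes fell from the cortex to the deep brain, Fcrls and P2ry12, beside 1.11% of the 7858 genes tested called lower (87 genes), 1.02% called higher and 2.13% called in either direction. DESeq2 called 1 of them. The median of the set was -0.15, beside 0.00928 over all genes. Fcrls ranged from 801 through 1045 to 1293 CPM in the cortex and from 504 through 635 to 704 CPM in the deep brain. Every deep brain library lay below every cortical library, but how many of all genes were separated in this way is not given here. The log2 fold change was -0.75 ± 0.10 (edgeR adjusted p = 7.37e-05). P2ry12 ranged from 1359.8 through 1965 to 2770.5 CPM and from 1280.2 through 1488 to 1647 CPM. It was lower in the deep brain in 6 of 6 mice and its log2 fold change was -0.40 ± 0.10 (edgeR adjusted p = 0.0195).

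For the other 7 genes the mutant region difference was not called. Siglech (-0.24 ± 0.10, edgeR adjusted p = 0.347) was lower in 5 of 6 mutants and Gpr34 (-0.19 ± 0.10, edgeR adjusted p = 0.461) in 5 of 6. Tmem119 and Selplg, which fell in controls, were lower in only 3 of 6 mutants, at -0.15 ± 0.12 and -0.13 ± 0.11. Cx3cr1 stood at -0.15 ± 0.09, Sall1 at -0.08 ± 0.13 and P2ry13 at 0.07 ± 0.12.

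These region calls depended on how the thinly captured cortical nuclei were chosen. An alternative chosen after seeing the data took microglia as nuclei with UMIs of at least 3 different microglial markers instead of by cluster. The cortex then gave 957 mutant and 585 control nuclei, and no gene of the set was called in either genotype. The lowest median depth of a cortical library was 1000 UMIs in mutants and 843 in controls, against 1924.5 and 1869 by cluster. The part of depth in the lost calls was not tested. Fcrls then had a log2 fold change of -0.60 in controls (edgeR adjusted p = 0.164) and of -0.54 in mutants (0.0711), and P2ry12 of -0.41 (0.332) and -0.19 (0.694). With mice 4 to 6 alone no gene was called in controls (Fcrls -0.67, edgeR adjusted p = 0.256), while Fcrls was called in mutants (-0.66, 0.00422). Without control 2 the edgeR adjusted p was 0.0712 for Tmem119 and 0.0852 for Selplg. For Gpr34 it was 0.192, 0.147, 0.0662 and 0.0611 without control 1, 2, 3 and 5, and for P2ry12 in mutants 0.161 without mutant 3 and 0.161 without mutant 4. Over all fits without 1 control, the log2 fold changes ranged from -0.66 to -0.54 (Tmem119), -0.55 to -0.45 (Selplg) and -0.52 to -0.38 (Gpr34). That of P2ry12 in mutants ranged from -0.47 to -0.33 over the fits without 1 mutant. With nuclei kept whatever their Mrc1, Mbp, Aqp4 or Rbfox3 UMIs, all 9 genes were called lower in the deep brain in both genotypes, beside 8.68% of all genes called lower in controls (876 of 10096) and 12% in mutants (1334 of 11080). Without the unnamed cortical cluster Fcrls (-0.92, edgeR adjusted p = 0.00962) but not P2ry12 (-0.25, 0.999617) was called in mutants, and the same 5 genes were called in controls. Over 16 alternatives Fcrls was called in 14 in controls and in 15 in mutants, and P2ry12 in 14 and in 7, always lower in the deep brain. The alternative with a mitochondrial share under 5% removed no microglial nucleus, so it repeated the main fit and adds nothing to these counts. In the 3 mice whose cortex gave over 200 nuclei, Fcrls stood in deep brain and cortex at 685 and 981 CPM (control 5), 684 and 801 CPM (mutant 5) and 504 and 973 CPM (mutant 6). P2ry12 stood at 1498 and 1940.1 CPM, 1280.2 and 1359.8 CPM, and 1647 and 2047 CPM. The deep brain value was the lower one for both genes in these 3 mice, but for P2ry12 in mutant 5 by little (736 and 806 UMIs). Whether thin capture had a part in the region difference was not tested. With only nuclei of at least 2000 UMIs, also chosen after seeing the data, Fcrls was called in both genotypes and P2ry12 in controls, while P2ry12 in mutants had an edgeR adjusted p of 0.0625. The 6 oligodendrocyte markers moved with the region, at 735 ± 74.5 CPM in control and 701 ± 114 CPM in mutant deep brain against 424 ± 103 and 540 ± 168 CPM in the cortex, with 1 to 3 of the 6 at 0 in a library, Mbp among them by selection. The 8 macrophage markers were at 196 ± 38.0 and 195 ± 47.9 CPM in control and mutant deep brain and 238 ± 57.2 and 268 ± 65.9 CPM in the cortex, with 5 to 7 of the 8 at 0. Fibroblast markers summed to 66.0 ± 20.3 and 63.9 ± 14.0 CPM in control and mutant deep brain and 25.0 ± 19.7 and 29.96 ± 16.8 CPM in the cortex, with 0 to 6 of the 6 at 0 in a library. Oligodendrocyte precursor markers summed to 139 ± 75.9 and 155 ± 57.5 CPM against 88.5 ± 27.3 and 93.7 ± 43.2 CPM, with 0 to 4 of the 6 at 0. Choroid plexus markers summed to 191 ± 103 and 128 ± 92.8 CPM against 84.7 ± 41.5 and 112 ± 97.9 CPM, with 2 to 5 of the 6 at 0. The 13 mitochondrial genes were lower in the deep brain, at 1461 ± 393 CPM in controls and 2039 ± 352 CPM in mutants against 1955 ± 1067 and 2920 ± 917 CPM in the cortex, in 5 of 6 controls and 6 of 6 mutants. The part of these lists in the result was not tested.

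**Figure D3:**
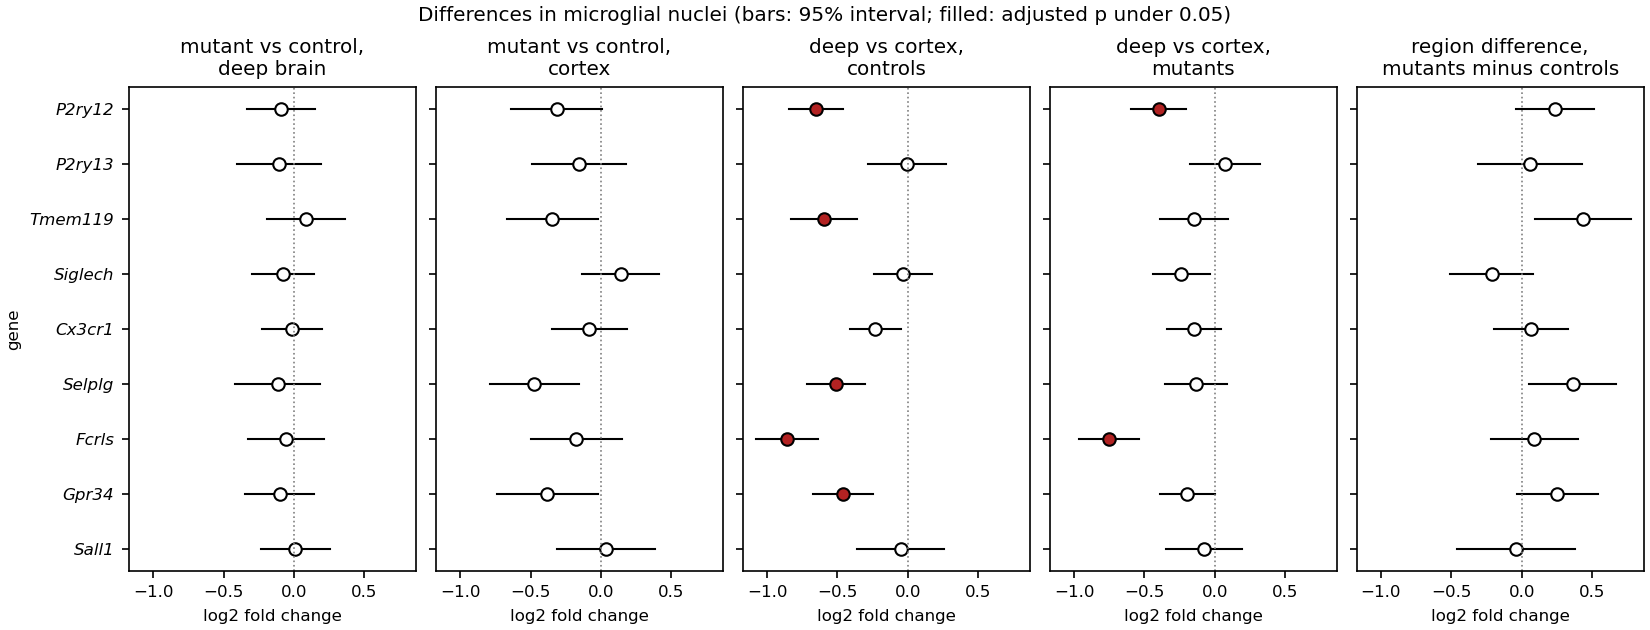
Log2 fold changes of the 9 genes (points) with 95% intervals (bars) in the 5 comparisons, filled where the edgeR adjusted p was under 0.05. No point is filled between genotypes or for the interaction, 5 are filled between regions in controls and 2 in mutants (Fcrls at -0.75 and P2ry12 at -0.40), all left of 0.

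Whether the region difference itself differed between genotypes was tested as an interaction over all 24 libraries with the mouse as a block. None of the 9 genes passed (0 of 9; DESeq2 called 0), with an edgeR adjusted p of 0.999937 for each, beside 0.0114% of the 8764 genes tested (1 gene). The 2 genes with an unadjusted p under 0.05, beside 4.1% of all genes at that limit (359 genes), were Tmem119, at 0.43 ± 0.17, and Selplg, at 0.36 ± 0.15. Their region difference was smaller in mutants, with 95% intervals from 0.09 to 0.77 and from 0.05 to 0.67. For Fcrls the interaction was 0.09 ± 0.15 and for P2ry12 0.24 ± 0.14. So the larger number of genes called in controls was not shown to be a difference between genotypes.

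Other genes were read from lists around the set. Of 26 other genes of the homeostatic state, 0 were called between genotypes in either region or in the interaction. Between regions 10 of the 26 fell in controls, beside 0.782% of all genes, and the median log2 fold change was -0.32 against 0.0029 over all genes. In mutants 6 fell, beside 1.11% of all genes, with a median of -0.22 against 0.0093, and none of the 26 rose in either genotype. These calls too depended on how nuclei and mice were chosen. With 3 markers, and with mice 4 to 6 only, none of the 26 was called in either genotype, and without the unnamed cortical cluster 10 fell in controls and 0 in mutants. Without mutant 4 the count in mutants was 2, with no pairing of regions by mouse it was 1, and with nuclei left out only at 2 or more UMIs of Mrc1, Mbp, Aqp4 or Rbfox3 it was 14. With that limit more of all genes were called as well. With nuclei kept whatever these UMIs, 25 fell in controls and 26 in mutants. Beside these, 8.68% of all genes were called lower in controls and 12% in mutants. Those that fell in controls included Olfml3 (-1.02 ± 0.12, edgeR adjusted p = 2.36e-05), Cst3, which encodes the protease inhibitor cystatin C (-0.84 ± 0.10), Ctss, which encodes cathepsin S, the complement genes C1qa (-0.80 ± 0.10), C1qb and C1qc, and Csf1r, Sparc and Ltc4s. Olfml3, Cst3, Ctss, C1qa, C1qb and C1qc were also the 6 that fell in mutants. C1qa, C1qb, C1qc, Ctss and Csf1r were microglial markers here too, so their levels took part in naming the nuclei. Over 16 alternatives Olfml3, Cst3 and C1qa each fell in 14 in controls, and in 13, 12 and 12 in mutants. The least stable call in controls was Csf1r, which fell in 11 alternatives and in 2 of 6 fits without a mouse. Ctss and C1qc in mutants each fell in 10 alternatives, and in 2 and 3 of 6 fits without a mouse. C1qa stood at 1204 ± 241 CPM in control cortex and 699 ± 139 CPM in control deep brain.

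Of 12 transcription factors and TGFβ inputs of microglia, only Maf was called, which fell between regions in mutants (-0.48 ± 0.11, edgeR adjusted p = 0.0192), and its difference in controls was the same size (-0.48 ± 0.14, edgeR adjusted p = 0.101). The medians of that list were -0.10 in controls and -0.01 in mutants. Of 16 activation genes 3 to 6 were abundant enough to test, and Apoe, a lipid carrier, was the 1 called. It rose in the deep brain of mutants (0.62 ± 0.16, edgeR adjusted p = 0.0297), from 233 ± 136 to 351 ± 142 CPM, and stood at 199.7 ± 159 and 196 ± 44.7 CPM in control cortex and deep brain. The medians of the activation genes tested were 0.54 between genotypes in the deep brain (4 genes) and 0.18 in the cortex (3 genes). Of 6 ligands and partners of the set, among them Cx3cl1 and the ATP-degrading enzyme Entpd1, 5 were tested and 0 called, with medians between regions of -0.35 in controls and -0.36 in mutants. Of 18 paralogs and genomic neighbours 5 to 8 were tested and 0 called, with medians of -0.14 and -0.12. Of the host genes on the opposite strand, Med12l stood at -0.37 ± 0.16 between regions in controls (edgeR adjusted p = 0.478) and -0.11 ± 0.13 in mutants, and Cask at -0.22 ± 0.12 and 0.08 ± 0.12.

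Within the deep brain, microglial nuclei were clustered without the 9 genes, and the level of the set was read in each cluster. The main cluster held 1663 nuclei, 829 from mutants and 834 from controls. A cluster of 482 nuclei was led by mitochondrial genes, and 198 of these came from mutant 4. A cluster of 48 nuclei, 42 of them from mutants, was led by Lpl, Lilrb4a, Ccl4, Cybb and Gpnmb and met 10 of 10 markers of the activated state, so it was called CAM-like after the calcification-associated microglia of the study. Of those markers, Apoe, Lpl, Axl, Spp1, Csf1, Itgax and Ank were reported by the study for such microglia in these same libraries. Cst7 and Igf1 were named there after these nuclei were joined with another dataset. Lilrb4a is not named in the text of the study. CAM-like nuclei were found in 6 of 6 mutants (2 to 15 per library) and in 3 of 6 controls (1 to 3 each). Smaller clusters were led by interferon-induced genes such as Oasl2 and Ifit2 (IFNR-like, 53 nuclei) and by neuronal genes such as Nrxn3 and Lsamp (61 nuclei). A cluster of 32 nuclei was led by genes that included Mki67, Top2a, Mpo, Elane and F13a1. F13a1 was also a macrophage marker here, and whether this Mki67-led cluster held cells other than microglia was not tested.

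All 9 genes were lower in CAM-like nuclei than in the main cluster, beside 52.0% of 4361 genes (2267 genes), but not by the same factor. Tmem119 gave 75.6 CPM (Poisson 95% interval 36.3 to 139) against 438 CPM in the main cluster, a ratio of 0.173, and was found in 14.6% of CAM-like and 58.0% of main cluster nuclei. Selplg had a ratio of 0.256, at 219 against 857 CPM. P2ry12 (658 against 1669 CPM), Siglech (499 against 1219 CPM) and P2ry13 (129 against 297 CPM) had ratios of 0.394, 0.409 and 0.432. The ratios were 0.462 for Cx3cr1, 0.494 for Sall1 and 0.499 for Gpr34. Fcrls was lowered least, at 484 CPM (373 to 618) against 683 CPM (657 to 710), a ratio of 0.708. Thus 8 of 9 genes had a ratio below 0.5, Gpr34 and Sall1 by a small margin, beside 8.62% of the 4361 genes (376 genes), and the median ratio over those genes was 0.980. At a finer resolution of 0.8 the count was 7 of 9, with Sall1 at 0.526 and Selplg at 0.351. The median depth was 2665 UMIs in CAM-like and 2256 UMIs in main cluster nuclei. Nuclei were pooled over mice here, and no test was made because the clusters were defined on the same nuclei. The study had already reported lower P2ry12, Selplg, Siglech and Tmem119 in calcification-associated microglia of these libraries. After these nuclei were joined with another dataset, it also reported lower P2ry12 and Cx3cr1 in the cluster that held them. The set was chosen with such results known, so its count beside all genes is a description and no independent support.

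In the 4 mutant libraries with at least 5 CAM-like nuclei a ratio could be read within a library. It was taken against all other microglial nuclei of the library, not against the main cluster alone as above. P2ry12, P2ry13, Tmem119, Siglech, Cx3cr1, Selplg and Gpr34 were lower in CAM-like nuclei in 4 of 4, and Fcrls and Sall1 in 3 of 4. The median ratio was 0.173 for Tmem119, from 7 UMIs, and 0.852 for Fcrls, from 47 UMIs. CAM-like nuclei were 42 of 1326 mutant microglial nuclei, and without them 0 of the 9 genes were called between genotypes, as with them.

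The other clusters had patterns of their own, and the Mki67-led cluster may not hold microglia alone. Nuclei were pooled over mice here too, so the intervals cover counting error and not differences between mice. Separate intervals are therefore a description and no test. IFNR-like nuclei numbered 3 to 11 in a mutant and 1 to 5 in a control library. Of the nuclei led by mitochondrial genes, 198 came from mutant 4. In the Mki67-led cluster P2ry12 (1239 CPM, 1031 to 1476), Siglech (535 CPM, 402 to 698), Cx3cr1 (743 CPM, 585 to 932), Selplg (634 CPM, 488 to 810.0), Gpr34 (406 CPM) and Sall1 (119 CPM) stood below the main cluster with separate intervals. The intervals of the other 3 genes overlapped it, with Fcrls at 704 CPM (549.6 to 888). In IFNR-like nuclei Fcrls (347 CPM, 250.3 to 469), Cx3cr1 (1306 CPM, 1111 to 1527) and Gpr34 (686 CPM, 547 to 851) lay below the main cluster with separate intervals. The intervals of the other 6 genes overlapped it, as for P2ry12 (1662 CPM), Siglech (1149 CPM) and Sall1 (322 CPM). In the cluster led by mitochondrial genes the intervals of 7 genes overlapped those of the main cluster, and P2ry12 (1542 CPM, 1465 to 1622) and Siglech (1103 CPM, 1038 to 1172) lay just below it. At a resolution of 0.8, where this cluster held 148 nuclei, the intervals of both genes overlapped those of the other microglia. P2ry12 then stood at 1666.4 against 1641.5 CPM and Siglech at 1223 against 1197 CPM. All 9 genes had a low CPM in the neuron-led nuclei, with P2ry12 at 477 CPM. The median depth of these nuclei was 5886 UMIs, against 2256 UMIs in the main cluster. A P2ry12 UMI was found in 77.0% of them (183 UMIs in 61 nuclei) and in 92.8% of main cluster nuclei (6274 UMIs in 1663 nuclei). The part of added neuronal RNA in the low CPM was not tested. In the cortex 174 of the 200 nuclei of the unnamed cluster came from mutants, and no CAM-like cluster was found.

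**Figure D4:**
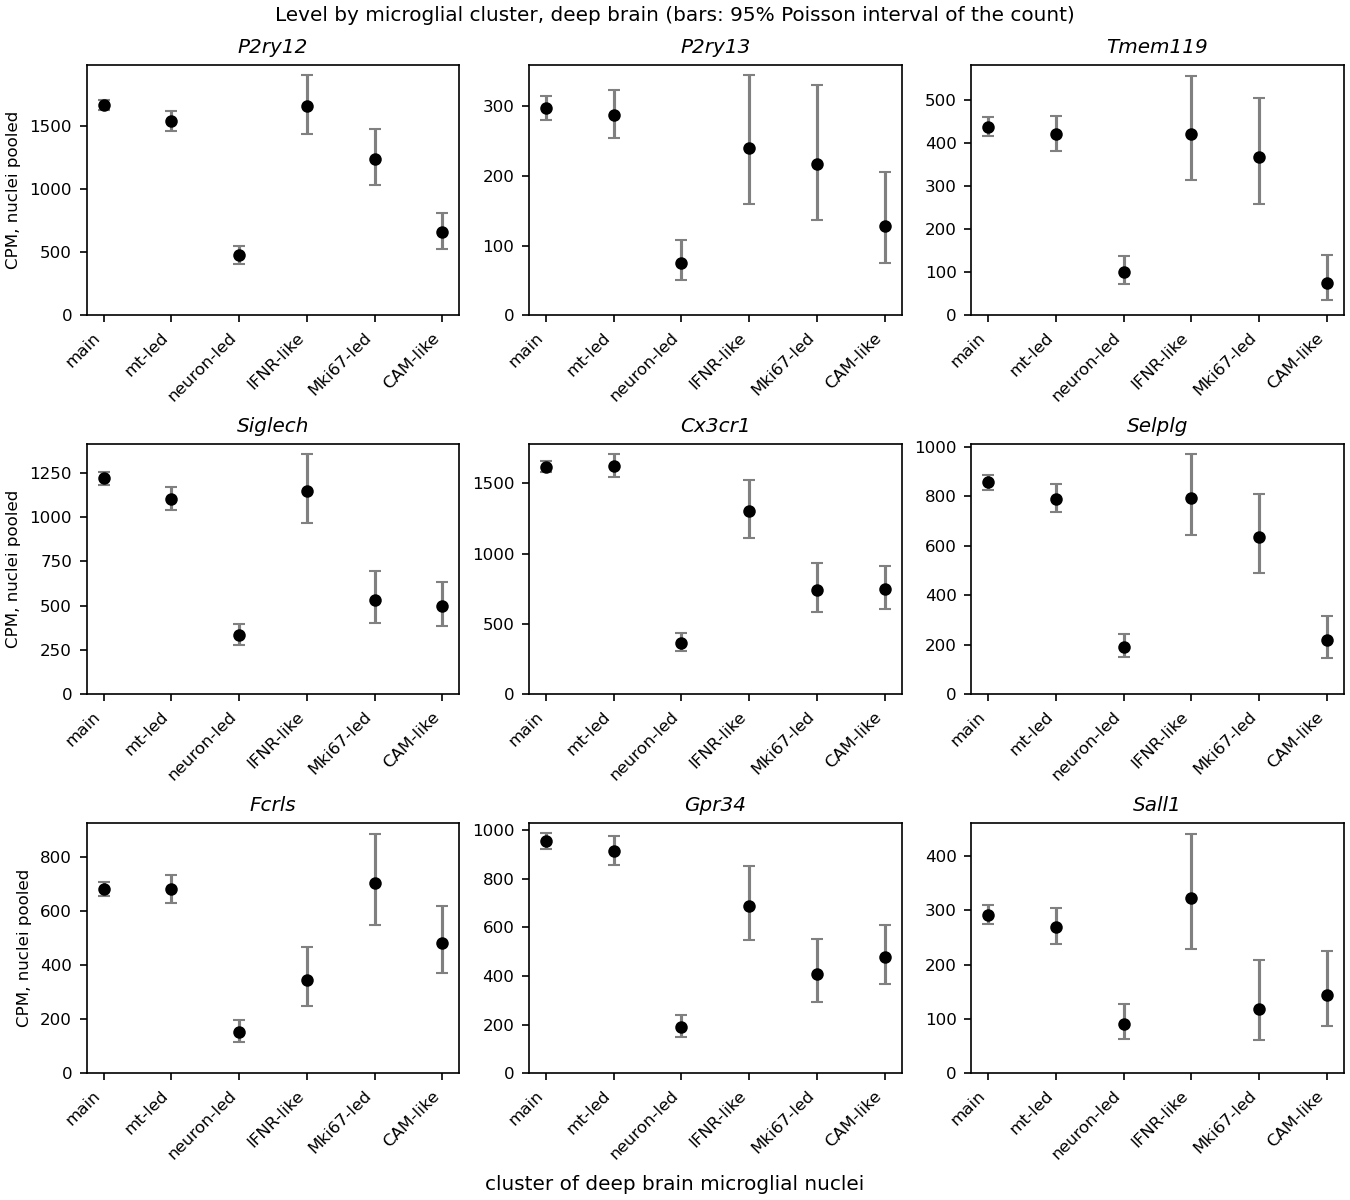
CPM of each gene in the 6 clusters of deep brain microglial nuclei, with nuclei pooled over mice and bars for the 95% Poisson interval of the count. CAM-like nuclei lie below the main cluster for all 9 genes, with the smallest ratio for Tmem119 (75.6 against 438 CPM) and the ratio nearest to 1 for Fcrls (484 against 683 CPM).

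Shares of nuclei with a UMI were compared after each microglial nucleus was thinned to 1000 UMIs, and shallower nuclei were left out (31, 13, 11 and 4 in mutant deep brain, control deep brain, mutant cortex and control cortex). Fcrls was then found in 43.5 ± 2.68% of mutant and 44.7 ± 5.29% of control deep brain nuclei (SD, n = 6), and in 60.3 ± 4.68% and 64.9 ± 10.2% of cortical nuclei. The unthinned shares were 65.6%, 67.4%, 83.9% and 90.6%. The lowest cortical share (53.7%) lay just above the highest deep brain share (53.4%), a narrow gap from a single random thinning. By CPM the regions overlapped in controls. How many of all genes were separated in this way is not given here, so this is a description of Fcrls alone. At 500 UMIs the deep brain was at most at 31.6% and the cortex at least at 33.3%. P2ry12 was found in 72.9 ± 5.41% and 73.7 ± 7.85% of deep brain and 80.2 ± 7.11% and 81.9 ± 11.6% of cortical nuclei, with overlapping groups. Unthinned oligodendrocyte nuclei of similar depth had a P2ry12 UMI in 1.72% of cases, but background differed between classes. Apart from Sall1, the genes stood at 0.132 to 0.668% of their microglial level in cortical oligodendrocytes. In the unnamed cortical nuclei they stood at 0.992 to 3.21%. The part of background in these shares was not tested. Of the 9 genes a thinned nucleus showed 4.40 ± 0.15 in mutant and 4.50 ± 0.37 in control deep brain, and 4.72 ± 0.36 and 4.98 ± 0.33 in mutant and control cortex.

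**Figure D5:**
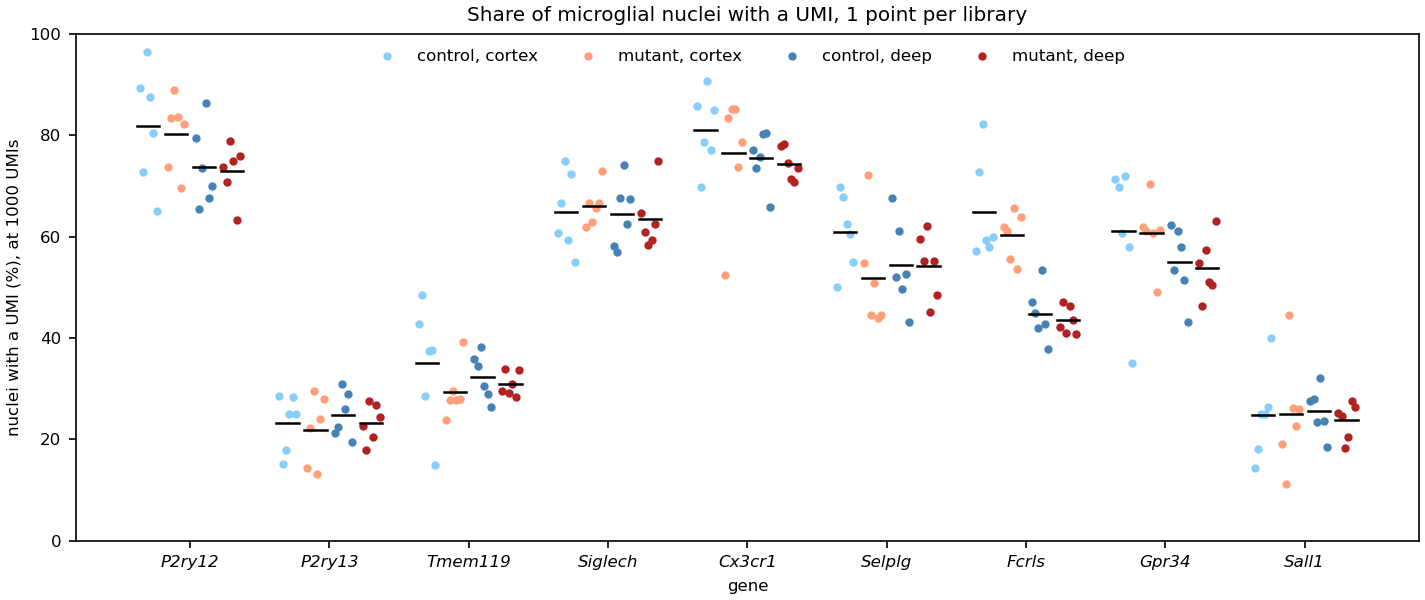
Share of microglial nuclei with a UMI of each gene after thinning to 1000 UMIs, 1 point per library and a line at the mean of 6 mice. For Fcrls the deep brain points (means 43.5 and 44.7%) all lie below the cortical points (means 60.3 and 64.9%), while P2ry13, Siglech and Sall1 lie at like heights in the 4 groups.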

How the data were processed

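Counts of UMIs per gene and nucleus, as the authors deposited them without normalization, were used for all 24 libraries. Per the study's methods and the submitters' notes, the authors demultiplexed with bcl2fastq 2.20.0.422 and aligned with Cell Ranger 5.0.1 to mm10, introns included, from 10x 5′ libraries. Nuclei with over 500 and under 7000 genes and under 20% mitochondrial UMIs were kept and scaled to 1000. Per region, 2000 variable genes and 20 components (scanpy 1.11.5, Python 3.11.15) were clustered in Seurat 5.3.0 at a resolution of 0.01, and mixed clusters at 0.1. From the microglial clusters, nuclei that held 1 or more UMIs of a gene of other cell types (Rbfox3, Aqp4, Mbp, Mrc1) were removed, and the rest were clustered again on 30 components at 0.4. A cluster was named where at least 3 markers were over 2-fold higher (10 CPM added) and at least 50% of the list was met, neurons against the glial clusters, unless mitochondrial genes or markers of another class led. The unnamed cortical cluster of microglial nuclei met the list of the interferon state. It was left unnamed by a separate rule, because Sox2ot, Adarb2, Erbb4 and Meis2, which were in no marker list, led it.

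Summed counts per library were tested with edgeR 4.0.16 (R 4.3.3; TMM, filterByExpr, quasi-likelihood test, Benjamini-Hochberg adjustment, threshold 0.05). Genotypes were compared in each region without a block, and regions within a genotype with the mouse as a block, since both regions came from the same animals. Alternatives were DESeq2 1.42.0, no filter on low counts, other limits and definitions of microglia, other blocks, mice 1 to 3 or 4 to 6, and leaving out each mouse. A limit of 5% mitochondrial UMIs removed no microglial nucleus and so repeated the main fit. The tests were tried on simulated data. Intervals of pooled counts are exact Poisson intervals and cover counting error only. The precision per library rests on its microglial UMIs, 309930 to 574915 in the deep brain and 77793 to 592727 in the cortex. Named genes were the 9 genes in every comparison, genes of the other lists past the threshold, at most 10 per list, and the 10 genes most correlated with the set; Cx3cl1, Entpd1, Med12l and Cask were named after their values were seen. The 9 genes and all lists were chosen with earlier results of these data known. An item withheld from this text is not reported here.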

Additional observations from a re-analysis of the deposited data

Results flagged for a closer look

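In each of the 4 groups of 6 libraries the highest and the lowest value of each of the 9 genes was compared with the rest of its group (Dixon's ratio at its 95% critical value), which gave 36 sets. Chance marks about 1 in 20 such sets, and 1 of the 36 stood apart. Siglech in the deep brain of control 4 was at 1376 CPM (470 UMIs in 133 microglial nuclei), with the next library at 1155 CPM and a ratio of 0.652. No explanation was tested.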

How the results depend on the processing

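Between genotypes none of the 9 genes was called in the deep brain under 15 alternatives, and in the cortex Selplg alone was called, by 2 fits with a replicate block. The alternatives counted here include the mitochondrial limit of 5%, which removed no microglial nucleus. Fcrls in both genotypes and P2ry12 in controls kept their region calls without any 1 mouse. These were lost with 3 markers and, in controls, with mice 4 to 6 only, while the other region calls depended on single mice as given above. The cause of each change below was not tested. Few nuclei limit the precision in the cortex, where 9 of 12 libraries gave 18 to 61 microglial nuclei. Settings chosen after seeing the data were 3 markers, no mixed cortical cluster (the unnamed one), nuclei of at least 2000 UMIs, and the removal of the clusters led by mitochondrial or neuronal genes (cluster removal).

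Of all genes, edgeR called 9 between genotypes in the deep brain, 4 in the cortex, 79 between regions in controls, 167 in mutants and 1 for the interaction. In the deep brain this became 83 with no filter on low counts, 14 with cluster removal, 4 at 2000 UMIs and 0 with mice 4 to 6 only (309 at an unadjusted p under 0.05). In the cortex it became 9 by DESeq2, 66 with no filter, 17 with a limit of 2 contaminant UMIs, 21 with no limit, 2 with 4 markers, 1 with 3 markers, 2 without the mixed cluster and 20 with mice 1 to 3 only. In controls it became 40 by DESeq2, 132 with no filter, 123 with a limit of 2, 2331 with no limit, 196 with cluster removal, 46 at 2000 UMIs, 1 with 3 markers and 4 with mice 4 to 6 only. In mutants it became 90 by DESeq2, 303 with no filter, 725 with a limit of 2, 3198 with no limit, 332 with cluster removal, 92 at 2000 UMIs and 109 with 3 markers. The interaction count was 7 with no filter and 0 with a limit of 2, no limit, 4 markers, 3 markers, cluster removal, 2000 UMIs or no replicate block (281 to 622 at an unadjusted p under 0.05). Leaving out 1 mouse gave 4 to 18 in the deep brain (18 without control 6, 4 without mutant 2, 5 without mutant 3 or mutant 6), 4 to 22 in the cortex (22 without mutant 6, 11 without mutant 5, 8 without control 4), 31 to 94 in controls (31 without control 2, 40 without control 5), 92 to 181 in mutants (92 without mutant 4) and 0 to 5 for the interaction.

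Replicate numbers of mutants and controls mark mice of equal age for 4 of 6 numbers, but were not shown to pair mice otherwise, since same-numbered deviations correlated at -0.21 to 0.18 in the deep brain and 0.013 to 0.18 in the cortex. With a replicate block the genotype counts were 14 in the deep brain and 33 in the cortex (31 with the block by age). Selplg in the cortex then stood at -0.46 (edgeR adjusted p = 0.0151, and 0.0212 by age) and Sall1 at -0.0048. With no replicate block the region counts were 42 in controls and 68 in mutants. Tmem119, Selplg and Gpr34 in controls then had edgeR adjusted p of 0.0751, 0.170 and 0.305, and P2ry12 in mutants one of 0.192.

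Log2 fold changes that changed sign between genotypes in the deep brain were Tmem119 (-0.0080 with a limit of 2, -0.038 with no limit, -0.0033 at 2000 UMIs), Sall1 (-0.080, -0.16 and -0.042 there, -0.0037 with 4 markers, -0.015 with mice 1 to 3), Cx3cr1 (0.013 without CAM-like nuclei, 0.0098 with mice 1 to 3) and Gpr34 (0.0015 with mice 4 to 6). In the cortex Sall1 did (-0.070 with a limit of 2, -0.18 with no limit, -0.066 with mice 4 to 6), and Fcrls without the mixed cluster (0.11).

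Between regions in controls P2ry13, Siglech and Sall1 turned to 0.084, 0.058 and 0.034 with no filter, 0.084, 0.051 and 0.028 with 4 markers, 0.028, 0.031 and 0.010 with cluster removal, and 0.25, 0.22 and 0.18 with 3 markers, where Cx3cr1 stood at 0.012. P2ry13 stood at 0.0075 when the 9 genes took part in clustering, 0.0070 without CAM-like nuclei and 0.16 with mice 1 to 3, Sall1 at 0.099 with mice 1 to 3, and Siglech at 0.0058 with mice 4 to 6. In mutants P2ry13 stood at -0.10 with a limit of 2, -0.48 with no limit and -0.057 with mice 4 to 6, and Sall1 at 0.0059 with 4 markers and 0.037 with cluster removal, and Selplg at 0.11 without the mixed cluster. With 3 markers Tmem119, Cx3cr1, Selplg, Gpr34 and Sall1 stood at 0.051, 0.071, 0.064, 0.021 and 0.13 in mutants. The interaction of Sall1 was 0.026 with no limit and 0.034 with cluster removal, and at 2000 UMIs that of Cx3cr1 was -0.035 and of Fcrls -0.084.

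Leaving out 1 mouse also turned signs. In the deep brain between genotypes Tmem119 ranged from -0.013 to 0.16, Cx3cr1 from -0.080 to 0.036, Fcrls from -0.15 to 0.026 and Sall1 from -0.034 to 0.079, and Sall1 in the cortex from -0.069 to 0.10. Between regions in controls P2ry13 ranged from -0.061 to 0.070, Siglech from -0.11 to 0.034 and Sall1 from -0.16 to 0.058, and Sall1 in mutants from -0.17 to 0.013. The interaction ranged from -0.018 to 0.14 for P2ry13, -0.0038 to 0.13 for Cx3cr1, -0.028 to 0.16 for Fcrls and -0.15 to 0.066 for Sall1.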
